A study of Mus musculus with 24 samples.

Results

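The lungs of Tnfr-/- mice were compared with those of Tnfr+/+ mice after 48 h of ozone (O3). The comparison rested on 6 of the 24 arrays of the series, the 3 titled as knockout and the 3 titled as wild type at that time. Tnfr-/- mice (B6.129S-Tnfrsf1a tm1Imx Tnfrsf1b tm1Imx/J) carry disrupted alleles of both receptors for tumor necrosis factor (TNF) in every cell, and Tnfr+/+ mice were of the strain C57BL/6J. All 6 were males of 6 to 8 weeks that breathed 0.3 ppm O3 continuously for 48 h. The remaining 18 arrays, 3 mice to a group, covered both genotypes under filtered air and O3 of 24 or 72 h. Total RNA of the left lung of each mouse was hybridized to an Affymetrix expression array, on which a probe set is a group of short probes for 1 transcript. The knockout strain name records targeting in 129S cells and a C57BL/6 background, so genes linked to the targeted loci and the receptor deletion itself cannot be told apart by this design.

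The 6 arrays were alike in total signal, but the genotypes differed in a measure of RNA quality and 1 array stood apart in markers of other tissues. Their total signal was between 15040500 and 15491000, their correlation with the other arrays averaged 0.933 to 0.947 on the log2 scale. The 3'/5' signal ratio of Gapdh, which increases as RNA is degraded, was 1.30 to 1.33 in Tnfr+/+ and 1.01 to 1.13 in Tnfr-/- lungs, and that of actin 1.13 to 1.29 and 1.03 to 1.10. The genotypes did not overlap in either ratio. Nor did they at 24 h, with Gapdh at 1.53 to 1.74 in Tnfr+/+ and 1.03 to 1.22 in Tnfr-/- lungs. Actin was then at 1.31 to 1.95 and 1.005 to 1.16. In air both ratios overlapped, and at 72 h that of Gapdh did while that of actin did not. Tnfr+/+ O3 72 h replicate 1 had a Gapdh ratio of 4.45. The part of these RNA differences in the results below was not tested. Markers of lung epithelium were high in all 6 arrays at 48 h. The 12 markers of alveolar type 2 cells, which make surfactant, summed to 154300 to 158600 units of normalized signal in Tnfr+/+ lungs and 160600 to 162800 in Tnfr-/- lungs. The 10 markers of club cells, the secretory cells of the small airways, summed to 135500 to 140100 and 130000 to 136500. Tnfr+/+ O3 48 h replicate 2 held more signal of fat markers. The 9 adipose markers summed to 24100 in it, 4026 and 4086 in the other Tnfr+/+ lungs and 3389 to 3528 in Tnfr-/- lungs. Ucp1, the uncoupling protein of brown fat, was at 415.6 in that array and at 4.93 to 14.3 in the other 5. Its immunoglobulin heavy chain gene Ighm was at 8265 and its immunoglobulin joining chain gene Jchain at 1713, where the other 5 arrays held 582 to 738 and 46.1 to 136.5. The count of called probe sets is therefore also given without this array.

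TNF is a cytokine released early in tissue injury. It signals through 2 receptors, TNFR1 (gene Tnfrsf1a), which is present on most cells and can lead to inflammation or to cell death, and TNFR2 (gene Tnfrsf1b), which is found mainly on immune and endothelial cells. Both receptors recruit TRAF adaptors and release the transcription factor NF-kB from its inhibitors, and NF-kB then switches on chemokines, adhesion molecules and cytokines. In the lung O3 oxidizes the airway lining, and the injured epithelium releases mediators, draws in inflammatory cells and divides to repair itself.

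Among the receptor genes only Tnfrsf1b passed the test at 48 h. Its probe set 1418099_at gave normalized signals of 451, 418 and 357.5 in the 3 Tnfr+/+ lungs and 178, 184.6 and 238 in the 3 Tnfr-/- lungs. The genotypes did not overlap, and the log2 difference (Tnfr-/- minus Tnfr+/+, here and throughout) was -1.04 with a standard error of 0.16 (limma, adjusted p = 0.0084). A second probe set of the gene, 1448951_at, averaged 177.9 in Tnfr+/+ and 166.2 in Tnfr-/- lungs, a difference of -0.04 (adjusted p = 0.97). Tnfrsf1a was at 2030, 2335 and 2907 in Tnfr+/+ lungs and at 1894, 1691 and 1654 in Tnfr-/- lungs. Every Tnfr+/+ value lay above every Tnfr-/- value, but the difference of -0.46 did not pass (adjusted p = 0.46). The position of these probes relative to the disrupted exons was not examined, so a remaining signal does not show that receptor was made. The call of Tnfrsf1b was lost without Tnfr-/- O3 48 h replicate 1 or 2 and when the 6 arrays were fitted alone, with adjusted p between 5.9e-04 and 0.17 over all settings tried.

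At 48 h, 34 of 20537 probe sets passed the test, 20 higher and 14 lower in Tnfr-/- lungs. This is 0.166% of those tested (0.0974% higher and 0.0682% lower). Before adjustment 1179 probe sets were higher (5.74%) and 1033 lower (5.03%) at a p under 0.05, 10.8% in all. The 34 had the 3 values of each genotype apart, which was so for 3907 probe sets, 19% of those tested, whether or not they passed. Of the 34, 27 matched 1 gene each and stood for 25 genes, 2 matched several genes of a family and 5 were unnamed in the annotation used. With each gene taken at its brightest probe set, 8 of 11597 genes were higher and 9 lower (0.147%). The plot of all probe sets shows the called ones at both bright and dim signals. The count was 24 without Tnfr+/+ O3 48 h replicate 2, and 14, 14 and 16 without Tnfr-/- O3 48 h replicates 1, 2 and 3. Fitted on the 6 arrays alone it was 15, and with array quality weights 106.

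**Figure D1:**
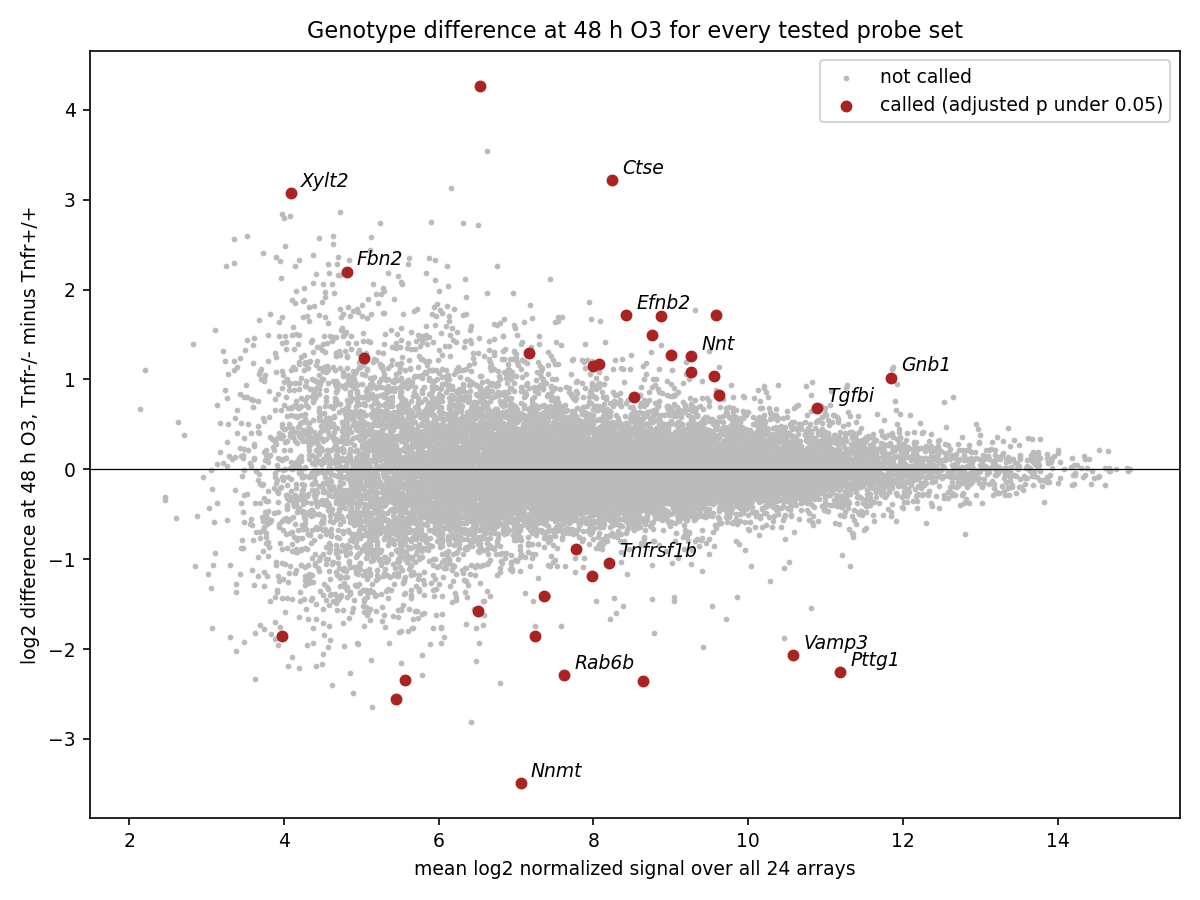
Log2 difference at 48 h O3 (Tnfr-/- minus Tnfr+/+, vertical axis) against the mean log2 normalized signal over all 24 arrays (horizontal axis), with 1 point for each of the 20537 tested probe sets. The 34 called probe sets are dark red, and uncalled probe sets scatter most widely at signals below 8 on the log2 axis.

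The smallest p belonged to probe sets lower in Tnfr-/- lungs, although Nnt and Wdfy1, which were higher, had a smaller p than Nnmt. Pttg1, securin, which restrains the separation of sister chromatids until anaphase, was at 5551, 5634 and 4616 in Tnfr+/+ lungs and at 1195, 1059 and 1034 in Tnfr-/- lungs. Tnfr+/+ lungs thus held 4.80-fold more, with no overlap, and the log2 difference was -2.26 ± 0.16 (SE, adjusted p = 2.9e-07). All 3 probe sets of Pttg1 pointed the same way, at -2.26, -2.36 and -2.81, of which the last missed the threshold (adjusted p = 0.079). Rab6b, a small GTPase of the Golgi known mainly from neurons, was at 342, 438 and 368 in Tnfr+/+ and at 112, 70.2 and 60.0 in Tnfr-/- lungs, a log2 difference of -2.29 ± 0.25 (adjusted p = 2.1e-04). Nnmt, which methylates nicotinamide, was at 239.9, 386 and 293 in Tnfr+/+ and at 15.1, 73.0 and 17.3 in Tnfr-/- lungs. That was the widest gap among the lower probe sets, a log2 difference of -3.49 ± 0.44 (adjusted p = 7.3e-04), although the 2 lowest values lie under the 20th percentile of an array (52.2). Pttg1 was called under all 16 alternatives, and Rab6b and Nnmt under all but the fit on the 6 arrays alone.

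Vamp3, a SNARE protein of recycling endosomes, had the smallest p of all but differed between its probe sets. Probe set 1437708_x_at was at 3422, 2978 and 3034 in Tnfr+/+ lungs and at 818, 651 and 786.5 in Tnfr-/- lungs. The groups were far apart, with a log2 difference of -2.07 ± 0.12 (adjusted p = 2.3e-08). The other 4 probe sets of the gene gave -0.77, -0.48, -0.07 and 0.20, and none of them passed at 48 h. Those at -0.77 and -0.48 were called lower over the other exposures (-1.10, adjusted p = 1.9e-05, and -0.52, adjusted p = 6.3e-04). The clock transcription factor gene Npas2 also had unlike probe sets, with 117.5, 107.9 and 90.9 against 21.0, 21.0 and 20 at probe set 1421036_at (log2 difference -2.34, adjusted p = 0.047) and -1.22 at its other probe set (adjusted p = 0.39). All 3 Tnfr-/- values of the former lie under the 20th percentile of an array, and its call was lost without any 1 of the 6 arrays, without the filter on low signals and with an ordinary linear model. A suffix x in a probe set's name marks probes that may bind related transcripts. The probe sets of Vamp3 at -2.07, -0.77 and -0.48 carry it, so the value for Vamp3 is uncertain as a measure of that gene.

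Among the genes higher in Tnfr-/- lungs, Nnt and Wdfy1 had the smallest p. Nnt, the mitochondrial transhydrogenase that makes NADPH and carries a known deletion in C57BL/6J mice, was at 457, 363 and 337 in Tnfr+/+ lungs and at 960.4, 845 and 950.3 in Tnfr-/- lungs. Its log2 difference was 1.26 ± 0.14 (adjusted p = 2.4e-04). Wdfy1, an endosomal adaptor of toll-like receptor signaling, was at 169, 180.4 and 189 in Tnfr+/+ lungs and at 362, 397.5 and 459 in Tnfr-/- lungs, a difference of 1.17 ± 0.14 (adjusted p = 2.5e-04), and a second probe set gave 1.15 (adjusted p = 0.0087). Gnb1, a beta subunit of heterotrimeric G proteins, averaged 2317 ± 262.5 in Tnfr+/+ and 4696 ± 456 in Tnfr-/- lungs (SD, n = 3 mice), a log2 difference of 1.02 ± 0.16 (adjusted p = 0.0087). Its other probe sets gave 0.64 (adjusted p = 0.084) and, at a dimmer signal, -0.36 (adjusted p = 0.49). The unnamed reading frame A430005L14Rik was at 497, 575 and 831 against 1087, 1126 and 1090, a difference of 0.83 ± 0.15 (adjusted p = 0.024). Nnt, Wdfy1, Gnb1 and A430005L14Rik all lost their calls when the 6 arrays were fitted alone. Gnb1 also lost its call without Tnfr-/- O3 48 h replicate 3, and A430005L14Rik without any of 5 of the 6 arrays. The second probe set of Wdfy1 lost its call in that fit too, and without Tnfr+/+ replicate 2 or Tnfr-/- replicate 1 or 2.

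Ctse, Tgfbi and Efnb2 were also higher in Tnfr-/- lungs. Ctse, the aspartic protease cathepsin E of epithelial and antigen-presenting cells, was at 120, 82.1 and 159 in Tnfr+/+ and at 1025, 1004 and 1229 in Tnfr-/- lungs. The gap was 9.31-fold, a log2 difference of 3.22 ± 0.57 (adjusted p = 0.021), but the second probe set of the gene gave -0.10 (adjusted p = 0.87). The call was lost without Tnfr+/+ O3 48 h replicate 1 or 2 or any 1 of the Tnfr-/- replicates. Tgfbi, a matrix protein induced by TGF-beta, was at 2411, 1898 and 1766 in Tnfr+/+ and at 3329, 3219 and 3099 in Tnfr-/- lungs. The genotypes were 1.60-fold apart with no overlap, and the log2 difference was 0.68 ± 0.13 (adjusted p = 0.032). Its other 3 probe sets gave 0.65, 0.56 and 0.03, none called. Tgfbi lost its call without any 1 of 5 of the 6 arrays (Tnfr+/+ replicates 2 and 3 and each Tnfr-/- replicate). It also lost it with a replicate block and when the 6 arrays were fitted alone. Efnb2, the ligand ephrin B2 of arterial endothelium and guiding cells, was at 194, 186.8 and 179 against 562, 578 and 717 at probe set 1449548_at, a difference of 1.72 ± 0.26 (adjusted p = 0.0058). Its 2 brighter probe sets gave 0.17 and 0.90 and a dimmer one 1.39, none called.

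A probe set shared by Sprr2a1 and Sprr2a2, small proline-rich proteins that cross-link in the envelope of squamous cells, was also called higher in Tnfr-/- lungs. It was at 47.4, 20.5 and 44.8 in Tnfr+/+ lungs and at 479, 823 and 796 in Tnfr-/- lungs, a log2 difference of 4.27 ± 0.69 (adjusted p = 0.0089). The Tnfr+/+ values all lie under the 20th percentile of an array, so the size of the difference is uncertain. All 3 Tnfr-/- lungs were far above all Tnfr+/+ lungs, and which of the paired genes was read cannot be told from this probe set. A probe set shared by Pirb, Pira2 and Pira1, paired immunoglobulin-like receptors of myeloid cells, was at 125.9, 128.6 and 88.3 against 275, 265 and 284 (log2 difference 1.29, adjusted p = 0.033). The call on the former was lost without Tnfr+/+ replicate 2 or Tnfr-/- replicates 2 or 3, and on the latter without any of the 6 arrays. The latter was also lost when the 6 arrays were fitted alone, without quantile normalization and with a replicate block.

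The remaining called genes were of mixed kinds. They fall outside the rule for named genes, because their signal was low or another probe set was brighter, and are given because the called probe sets are few. Higher in Tnfr-/- lungs were Hyou1, a chaperone of the endoplasmic reticulum (log2 difference 1.5), Arcn1, a subunit of the COPI vesicle coat (1.27), Dnajb4, a co-chaperone (0.81), Pitpnc1, a phosphatidylinositol transfer protein (1.24), Xylt2, a xylosyltransferase that starts proteoglycan chains (3.07), and Fbn2, a microfibril protein (2.20). Lower were Acaa1b, a peroxisomal thiolase (-1.86), Cdh3, P-cadherin (-1.58), Prss23, a serine protease (-1.19), Cd209f, a C-type lectin (-0.89), Lcn5, a lipocalin (-1.86), and Tcl1b1 (-1.41). Several of these levels are dim. Fbn2 was at 3.96 to 10.7 in Tnfr+/+ and 30.5 to 40.9 in Tnfr-/- lungs, so that both genotypes lay under the 20th percentile of an array. Xylt2 was at 5.83 to 13.7 and 67.0 to 79.0, and Lcn5 at 20.6 to 64.8 and 10.2 to 12.0, with 1 genotype of each wholly under it. Pitpnc1 was at 21.1 to 26.9 in Tnfr+/+ and 49.2 to 61.3 in Tnfr-/- lungs, and Cdh3 at 77.4 to 131.9 and 31.2 to 46.5, again with 1 genotype under it. In 5 of these genes the brightest probe set was not called, at 0.06 in Arcn1, 0.20 in Dnajb4, 0.60 in Hyou1, 0.32 in Pitpnc1 and -0.52 in Prss23. The called probe sets of Prss23 and Tcl1b1 carry the suffix x, so their values are uncertain as measures of those genes.

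Most of these calls depended on single arrays. All of them were lost when the 6 arrays were fitted alone. That of Prss23 was also lost without any 1 of the 6, and those of Xylt2 and Dnajb4 without any but Tnfr+/+ replicate 2. Acaa1b, Arcn1, Lcn5 and Fbn2 lost theirs without any 1 of the Tnfr-/- replicates, and the latter 3 also without Tnfr+/+ replicate 3 (Arcn1 and Lcn5) or 2 (Fbn2). Hyou1 lost its call without replicate 2 or 3 of either genotype, Cd209f without replicate 1 or 2 of either, Cdh3 without Tnfr+/+ replicate 1 or 2 or Tnfr-/- replicate 1 or 3, and Tcl1b1 without Tnfr+/+ replicate 1 or 3 or Tnfr-/- replicate 1 or 2. Pitpnc1 kept its call without each of the 6.

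**Figure D2:**
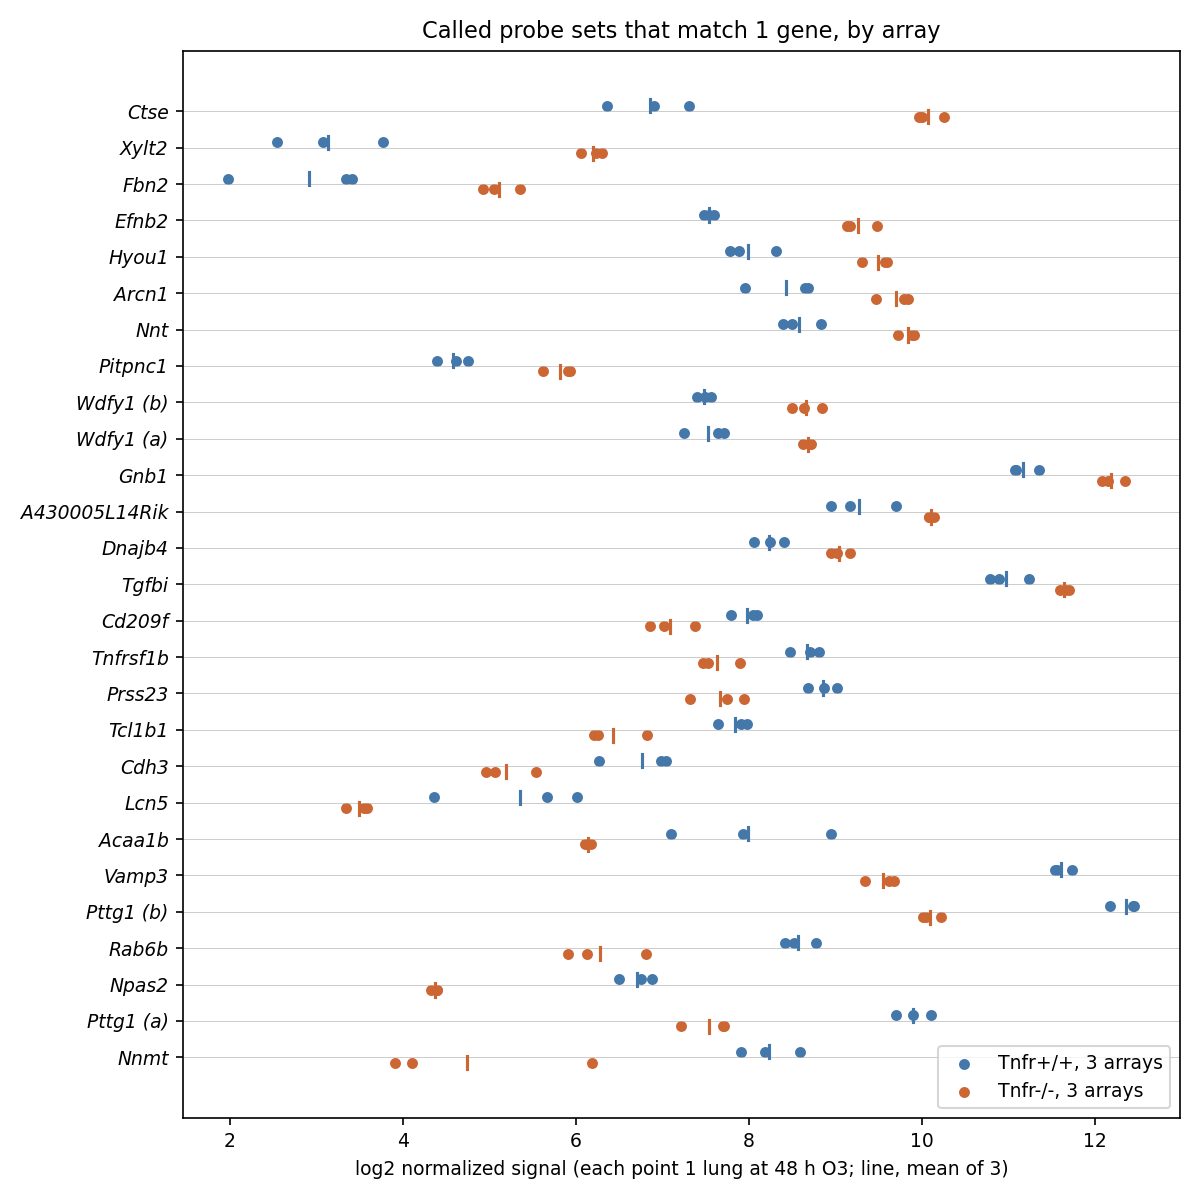
Log2 normalized signal (horizontal axis) of the 27 called probe sets that match 1 gene, with 1 point per lung at 48 h O3 and a line at the mean of 3. Tnfr+/+ lungs are blue and Tnfr-/- lungs orange, and in no row do the colors overlap. Genes with a pair of called probe sets are marked a and b.

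Most of the 34 differences were also seen in lungs that had not been exposed for 48 h. The 18 arrays of air, 24 h and 72 h share no array with the 48 h comparison, although the fit shares 1 estimate of spread. Over them 22 of the 34 were called in the same direction, where 1.28% of all probe sets were called higher and 1.12% lower (2.4%). The sign was that of 48 h in 32 of 34 for the mean of the other exposures, against 65.5% of all probe sets. The 22 included Pttg1 (-2.55 over the other exposures), Vamp3 (-2.31), Rab6b (-1.95), Nnmt (-1.80), Tnfrsf1b (-0.95), Nnt (1.05), Wdfy1 (0.94), A430005L14Rik (0.87), Gnb1 (0.72), Ctse (2.68) and Tgfbi (0.31, adjusted p = 0.032). The 12 that were not called there included Acaa1b (-0.19), Fbn2 (-0.06), Lcn5 (-0.21), Tcl1b1 (-0.17), Xylt2 (0.70) and the Sprr2a probe set (0.66).

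**Figure D3:**
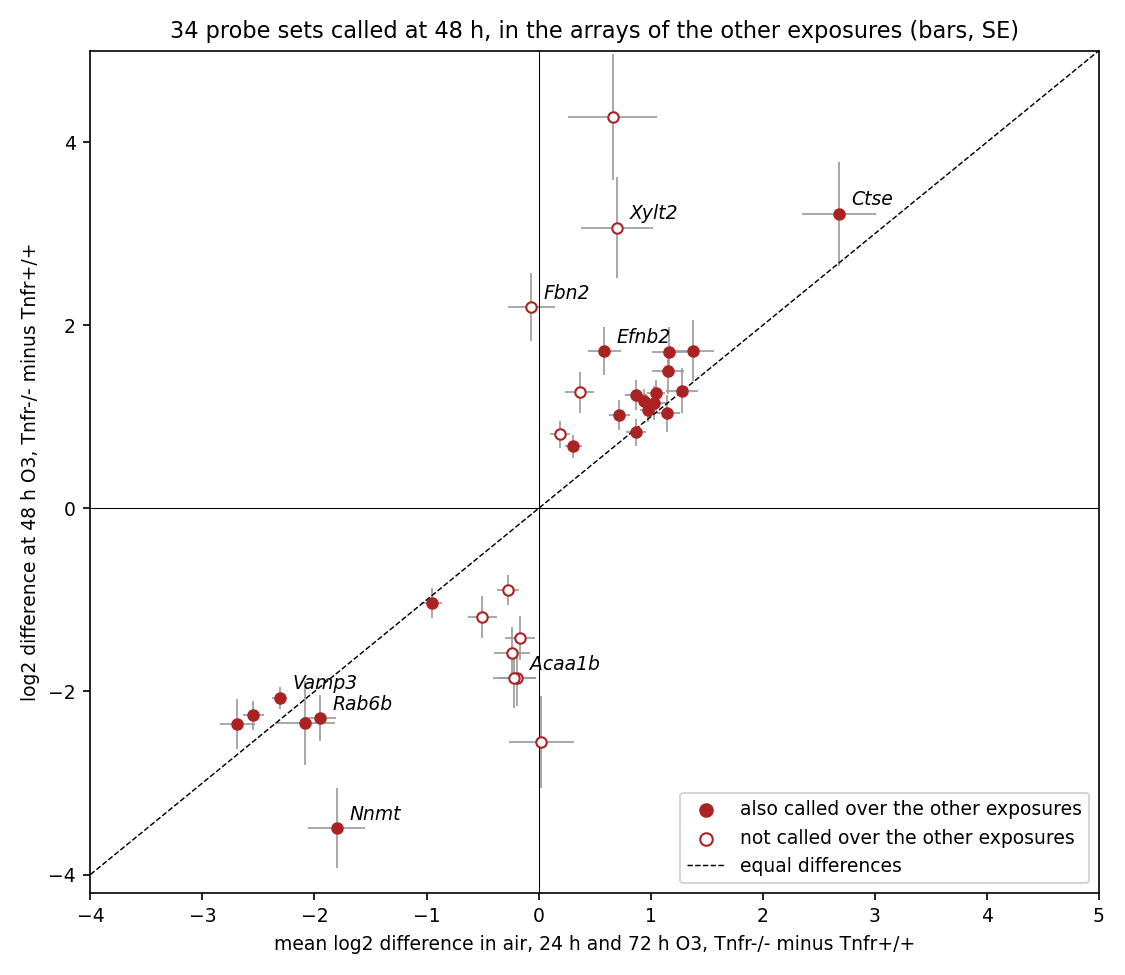
Log2 difference at 48 h O3 (vertical axis) against the mean log2 difference in air, 24 h and 72 h (horizontal axis), both Tnfr-/- minus Tnfr+/+, for the 34 probe sets called at 48 h, with standard errors as bars. Filled points (22) were also called over the other exposures, open points (12) were not, and the dashed line marks equal differences.

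Whether the genotype difference at 48 h differed from that in air was asked by an interaction test, and no probe set passed. Without adjustment 1131 had a p under 0.05 (5.51% of those tested). None of the 34 passed, and 17 of them had an unadjusted p under 0.05. The smallest was for Tcl1b1, at an interaction of -2.00 on the log2 scale (adjusted p = 0.12), followed by Fbn2 at 2.31 and the Sprr2a probe set at 4.19 (adjusted p = 0.50 and 0.51). From air to 48 h O3 the Sprr2a signal differed by 0.41 on the log2 scale in Tnfr+/+ lungs and by 4.59 in Tnfr-/- lungs, and Tgfbi by 0.88 and 1.54. The interaction with air gave 7 calls when only the 12 arrays concerned were fitted, 3 with array quality weights, 3 without Tnfr+/+ O3 48 h replicate 1 and 1 without Tnfr+/+ O3 72 h replicate 1.

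Against 24 h O3, 4 probe sets passed the interaction test (0.0195%, with 5.98% at an unadjusted p under 0.05), and in each the larger genotype difference was that at 24 h. Hsph1, a large heat shock protein, differed by 0.37 at 48 h and by -2.67 at 24 h, an interaction of 3.05 (adjusted p = 0.013). Chordc1, a co-chaperone of HSP90, differed by 0.27 and -1.71 (interaction 1.98, adjusted p = 0.025). Egr1, an immediate early transcription factor, differed by 0.30 and 2.33 (interaction -2.03, adjusted p = 0.0045), and AA545190, a transcript without a named function, by -0.36 and 2.74 (interaction -3.11, adjusted p = 0.0022). None of the 4 was called between genotypes at 48 h, where their 3 values a genotype overlapped. Against 72 h O3 no probe set passed, and 968 had an unadjusted p under 0.05 (4.71%). Fitted on the 12 arrays of the 24 and 48 h groups alone, no interaction passed, and the 4 calls became 7 without Tnfr+/+ O3 48 h replicate 2 and 2 without Tnfr-/- O3 48 h replicate 2 or 3. Against 72 h, 1 passed without Tnfr+/+ O3 48 h replicate 1 or Tnfr+/+ O3 72 h replicate 1.

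**Figure D4:**
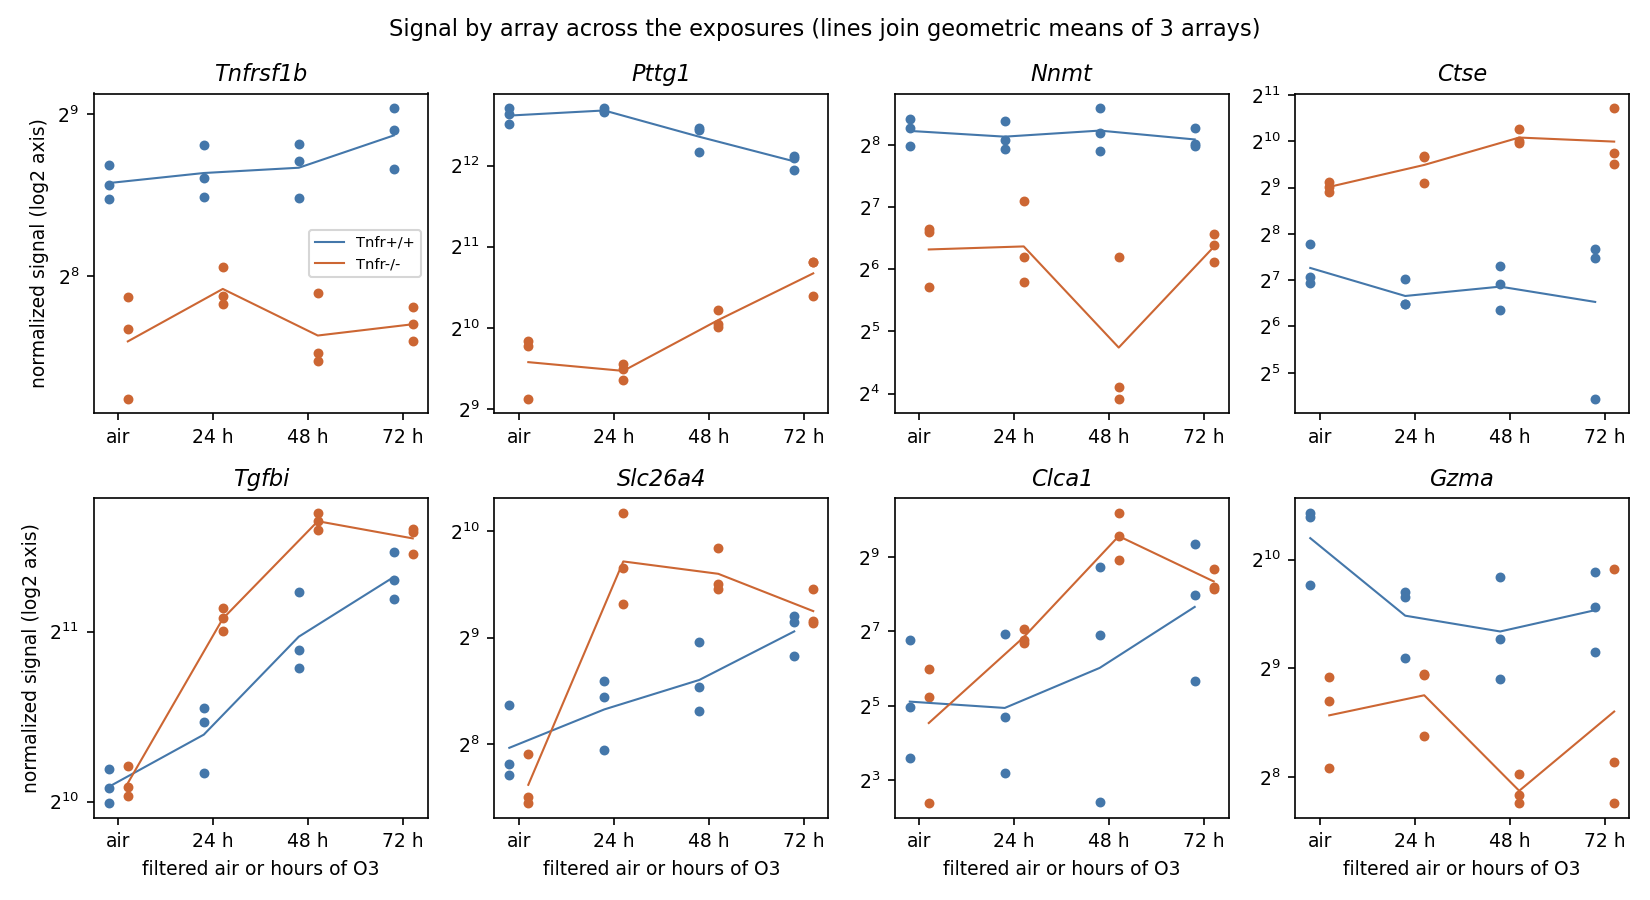
Normalized signal (log2 axis) of 8 genes by exposure (filtered air, then 24, 48 and 72 h of O3) with 1 point per lung, Tnfr+/+ in blue and Tnfr-/- in orange, and lines through the geometric means of 3. Tnfrsf1b, Pttg1 and Nnmt were lower in Tnfr-/- lungs and Ctse higher at each exposure, while in air the differences in Tgfbi, Slc26a4 and Clca1 were 0.02, -0.35 and -0.58, none called.

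Genes near the targeted loci were examined by gene order on GRCm38.p6. Tnfrsf1b lies on chromosome 4, and 33 of its 100 nearest protein-coding neighbours were measured. None was called at 48 h, 6 (18.2%) had an unadjusted p under 0.05, against 9.41% of all genes, and 6 (18.2%) were called over the other exposures, against 2.11%. The lowest p at 48 h was that of Fbxo2, a ubiquitin ligase subunit (-0.68, adjusted p = 0.10), followed by Zfp991 (1.29, adjusted p = 0.21) and Plod1, a collagen lysyl hydroxylase (0.69, adjusted p = 0.22). Vamp3, A430005L14Rik and Gnb1 lie on the same chromosome, 77, 101 and 130 genes from Tnfrsf1b. Of 64 measured neighbours of Tnfrsf1a on chromosome 6, none was called, 5 (7.81%) had an unadjusted p under 0.05 and 2 (3.12%) were called over the other exposures. By chromosome, 4 of 1119 probe sets on chromosome 4 were called at 48 h (0.357%), Tnfrsf1b among them, against 0.166% of all tested. Called were also 4 of 1115 on chromosome 1 (0.359%), 5 of 993 on chromosome 9 (0.504%) and 3 of 951 on chromosome 8 (0.315%). On chromosome 11 it was 4 of 1582 (0.253%), and on chromosome 6 it was 0 of 1054.

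Beyond single genes, 44 lists of processes and cell types were described by counts and medians. Across all 11597 genes the median log2 difference was -0.04, with 43.2% of genes above 0 and 56.8% below. Before adjustment, at a p under 0.05, 3.79% of genes were higher and 5.62% lower. These shares are the background for the counts that follow. A list member was taken at its brightest probe set that matches 1 gene, so shared probe sets such as that of Sprr2a are left out. Only Tnfrsf1b, Pttg1 and Tgfbi were then called, so no list holds more than 1 call, and the unadjusted counts are descriptions. In whole lung, fewer cells of a type and less RNA per cell cannot be told apart.

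**Figure D5:**
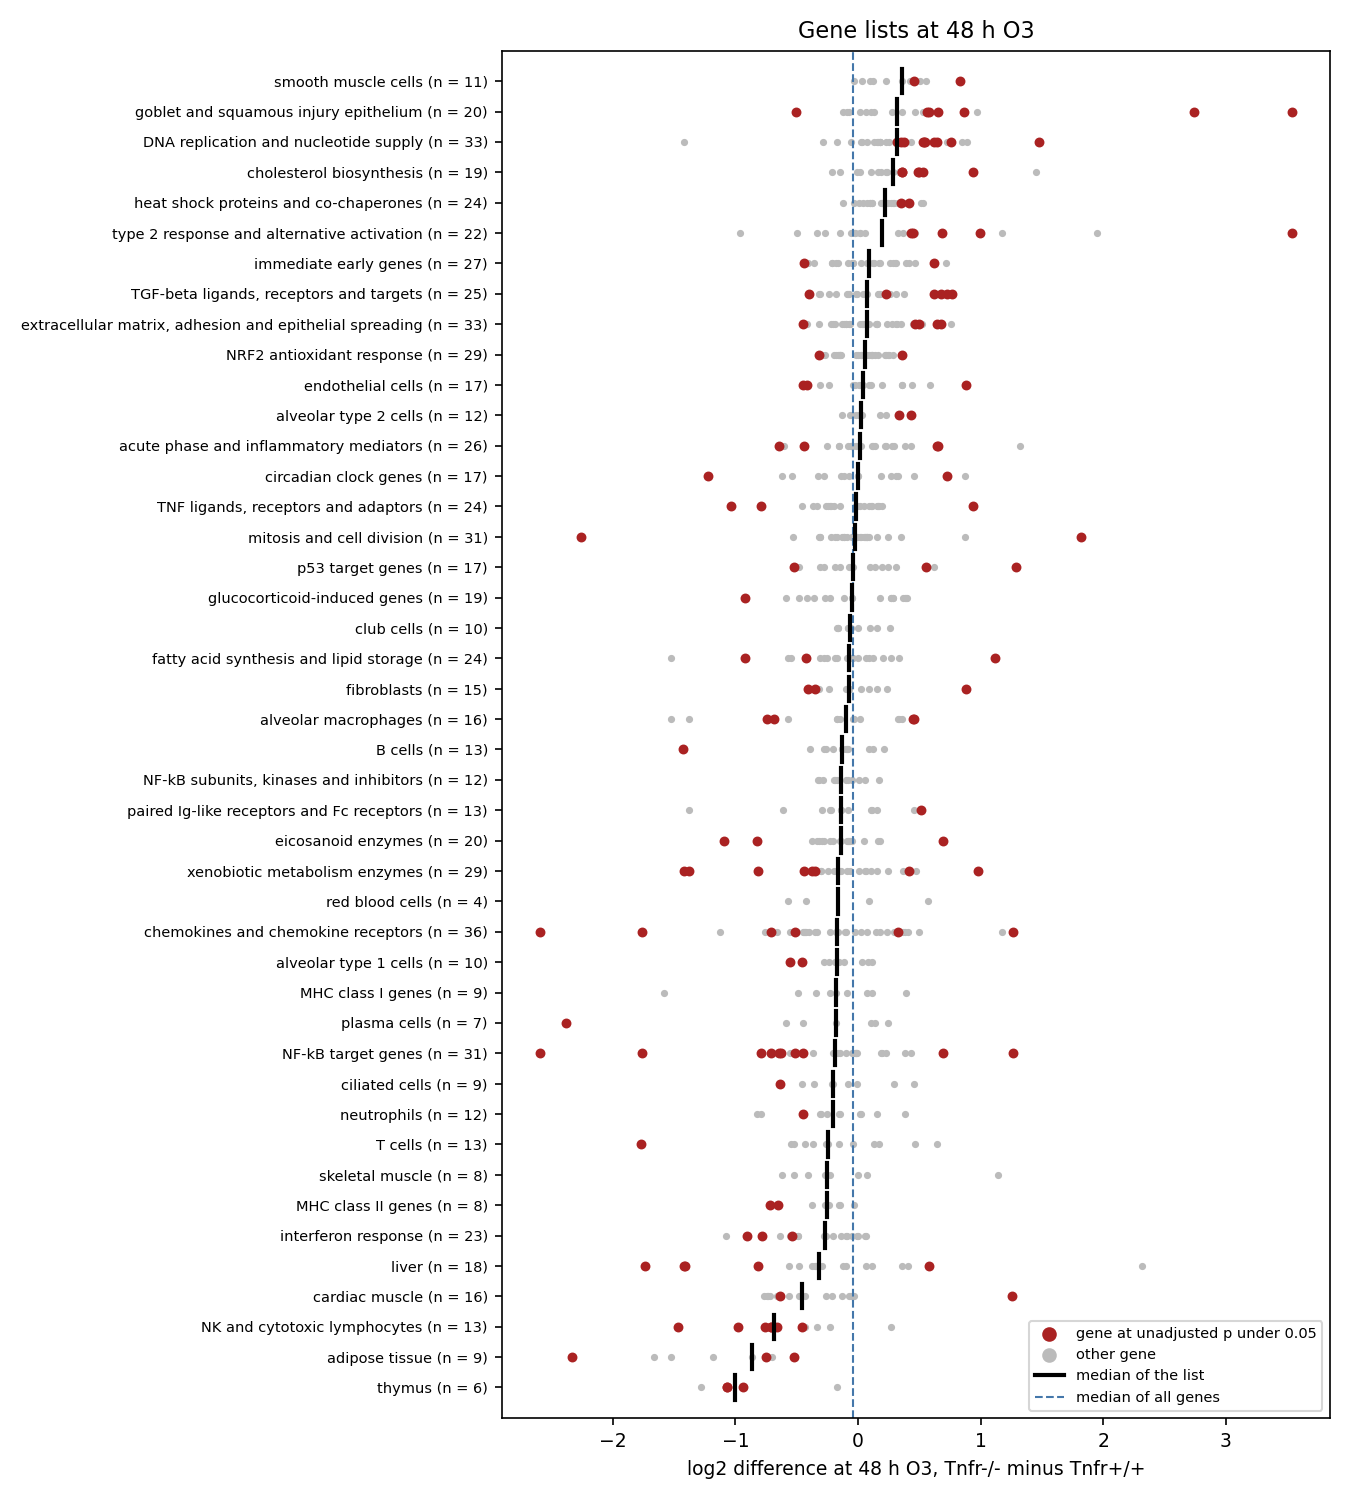
Log2 difference at 48 h O3 (horizontal axis, Tnfr-/- minus Tnfr+/+) of every measured gene in 44 lists (rows, with the number measured), ordered by the list median (black line). Genes at an unadjusted p under 0.05 are dark red, the dashed line is the median of all genes, and medians run from -1.0 in thymus markers to 0.36 in smooth muscle markers.

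In the TNF pathway Tnfrsf1b was the only call. Of 24 ligands, receptors and adaptors, Tnfrsf1b was called lower and 23 did not pass (median -0.02). Of 12 NF-kB subunits, kinases and inhibitors none was called or reached an unadjusted p under 0.05 (median -0.14), Nfkbiz having the lowest p (-0.33). Nfkbia, the inhibitor that NF-kB itself induces, was at 12510, 12350 and 12550 in Tnfr+/+ lungs and 11640, 10110 and 13360 in Tnfr-/- lungs, a difference of -0.10 (adjusted p = 0.85). Of 31 NF-kB target genes none was called, 8 were lower and 2 higher before adjustment, and 24 were below 0 (median -0.19). These 10 became 6 without Tnfr+/+ O3 48 h replicate 3 or Tnfr-/- O3 48 h replicate 2, and 7 to 9 without any other of the 6 arrays.

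The lower NF-kB targets included chemokines and an adhesion molecule. Cxcl5, an epithelial chemokine for neutrophils, was at 94.2, 52.9 and 71.5 in Tnfr+/+ lungs and at 22, 20.6 and 3.58 in Tnfr-/- lungs (log2 difference -2.59, adjusted p = 0.22). Ccl20, which draws dendritic cells and lymphocytes, was at 172, 151 and 145 against 33.5, 79.6 and 36.3 (-1.76, adjusted p = 0.25). Both separated the genotypes without passing the test. Every Tnfr-/- value of Cxcl5, and the 33.5 and 36.3 of Ccl20, lie under the 20th percentile of an array (52.2), so the sizes of these differences are uncertain. Over the other exposures Cxcl5 was called lower (-1.66, adjusted p = 0.049) and Ccl20 was not called (-0.65, adjusted p = 0.30). Vcam1, an adhesion molecule of activated endothelium, gave -0.62 at its brightest probe set (adjusted p = 0.21), but 0.22 and 1.64 at the other 2. The opposite sign was seen for Cxcl1, another neutrophil chemokine (1.27, adjusted p = 0.45), and for the brighter probe set of Ptgs2, the inducible cyclooxygenase (0.69, adjusted p = 0.38). The other probe set of Ptgs2 gave -0.25 (adjusted p = 0.85). The Tnfr+/+ values of 50.15 and 25 of Cxcl1 also lie under the 20th percentile (52.2), so the size of its difference is uncertain. Among 36 chemokines and their receptors none was called, with 4 lower and 2 higher before adjustment (median -0.17), and among 26 acute phase and inflammatory mediators 2 were lower and 2 higher (median 0.02). Il6, the cytokine that drives the acute phase response, was dim, at 81.9, 63.1 and 61.7 against 82.8, 100.9 and 94.0 (0.43, adjusted p = 0.64).

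The promoters of these genes were searched for a motif of NF-kB. The motif, read as GGGA, then any base, then TTTCC, was sought on both strands in RefSeq promoter windows of GRCm38.p6, from 250 bases before the transcript start to 50 after it. It stood in 57 of 9257 measured genes (0.616%) and in 0 of 16 called genes with a window, and in 6 of the 23 NF-kB targets with a window (Csf1, Cxcl1, Cxcl2, Il6, Nfkb2 and Nfkbia). A match is a description of letters, not a proven site. The windows of Cxcl1 (chr5:90890995-90891294, plus strand), Il6 (chr5:30012864-30013163, plus strand) and Csf1 (chr3:107760420-107760719, minus strand) are shown, since these NF-kB targets differed in sign at 48 h, with the motif in capitals.
Cxcl1: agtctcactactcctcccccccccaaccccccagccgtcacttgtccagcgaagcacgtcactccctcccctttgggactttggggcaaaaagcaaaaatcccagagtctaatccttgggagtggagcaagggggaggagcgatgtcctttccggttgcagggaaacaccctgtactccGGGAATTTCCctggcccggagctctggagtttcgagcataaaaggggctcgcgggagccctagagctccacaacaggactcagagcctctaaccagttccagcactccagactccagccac
Il6: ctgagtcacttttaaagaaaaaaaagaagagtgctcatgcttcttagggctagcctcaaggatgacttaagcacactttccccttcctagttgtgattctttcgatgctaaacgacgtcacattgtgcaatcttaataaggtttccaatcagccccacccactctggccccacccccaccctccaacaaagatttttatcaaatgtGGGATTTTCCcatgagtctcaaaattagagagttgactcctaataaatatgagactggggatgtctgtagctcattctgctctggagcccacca
Csf1: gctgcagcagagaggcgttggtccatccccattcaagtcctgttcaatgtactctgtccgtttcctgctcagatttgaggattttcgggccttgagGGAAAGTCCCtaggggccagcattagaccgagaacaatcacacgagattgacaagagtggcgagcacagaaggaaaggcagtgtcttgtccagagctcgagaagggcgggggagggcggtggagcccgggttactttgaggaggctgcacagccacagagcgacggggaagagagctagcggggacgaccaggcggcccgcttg
These 3 genes carry the same motif, in Csf1 on the opposite strand, yet Cxcl1 was at 92.5, 50.2 and 25.0 in Tnfr+/+ lungs and 104.7, 142 and 108.5 in Tnfr-/- lungs, while Csf1, a growth factor for macrophages, was at 821, 1009 and 648 against 657, 495 and 562 (-0.52, adjusted p = 0.30). Neither Cxcl1 nor Csf1 passed the test, and the Csf1 values overlapped between genotypes.

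Markers of natural killer (NK) and cytotoxic lymphocytes had one of the lowest medians. Of 13 such genes 12 were below 0, 8 at an unadjusted p under 0.05, none was called, and the median was -0.69. Gzma, a granzyme with which these cells kill their targets, was at 919, 617.5 and 480 in Tnfr+/+ and at 229, 260.6 and 217 in Tnfr-/- lungs, a difference of -1.47 (adjusted p = 0.21). Ccl5, a chemokine they release, was at 708, 563 and 687 against 446.5, 490.1 and 289 (-0.71, adjusted p = 0.25). Nkg7, a granule membrane protein, gave -0.71 (adjusted p = 0.31). The summed signal of the list was 2841 to 3545 in Tnfr+/+ and 1596 to 1989 in Tnfr-/- lungs, and the list's median was also below 0 in air (-0.47), at 24 h (-0.36) and at 72 h (-0.56). Over the other exposures Ccl5 (adjusted p = 0.0067) and Gzma (adjusted p = 0.020) were called lower. Without Tnfr+/+ O3 48 h replicate 1 or without Tnfr-/- O3 48 h replicate 3, 4 of the 13 had an unadjusted p under 0.05, and 7 without Tnfr+/+ replicate 2.

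Markers of T cells, thymus and fat were also lower in median, and the Tnfr+/+ array with fat signal bears on them. Cd3d, a chain of the T cell receptor complex, was at 159, 295 and 101.3 in Tnfr+/+ and 46.8, 76.8 and 33.3 in Tnfr-/- lungs (-1.77, adjusted p = 0.13). It ran from -2.14 to -1.37 with single 48 h arrays left out, and was called lower over the other exposures (-1.35, adjusted p = 0.0083). The T cell medians were -0.29 in air, 0.21 at 24 h and -0.58 at 72 h. At 48 h the median of the 13 T cell genes was -0.24 and became 0.02 without Tnfr+/+ O3 48 h replicate 2. The 6 thymus genes had a median of -1.0 with that array and -0.65 without it, and their summed signal was 800, 2128 and 888 in the Tnfr+/+ lungs against 623 to 779 in Tnfr-/- lungs. Ccr9, a chemokine receptor of thymocytes, was at 62.7, 107.2 and 60.1 against 42.1, 36.0 and 28.8 (-1.07, adjusted p = 0.20). The 9 adipose genes had a median of -0.86, which became -0.26 without the array, and the 3 at an unadjusted p under 0.05 (Ucp1, Pnpla2 and Retn) became 0. B cell and plasma cell lists had medians of -0.13 and -0.18, with Ighm (-1.42) and Jchain (-2.38) highest in the same array and neither called.

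Genes of DNA replication were higher in Tnfr-/- lungs as a median. Of 33 genes 29 were above 0, 10 at an unadjusted p under 0.05 and none lower, with a median of 0.32 and no call. These 10 became 6 without Tnfr-/- O3 48 h replicate 1 or 2, and 7 to 13 without any other of the 6 arrays. Mcm6, part of the replicative helicase, was at 616, 572 and 518 in Tnfr+/+ and at 848, 975 and 840.4 in Tnfr-/- lungs (0.64, adjusted p = 0.22). Mcm5, of the same helicase, gave 0.55 (adjusted p = 0.24) and Rpa2, which coats single-stranded DNA, 0.53 (adjusted p = 0.27). The medians for the same genes were -0.04 in air, 0.13 at 24 h and 0.05 at 72 h, and from air to 48 h O3 they were 0.49 in Tnfr+/+ and 0.80 in Tnfr-/- lungs. The 31 genes of mitosis did not share this, with a median of -0.02, Pttg1 called lower and 30 not passing. Among 17 p53 targets 2 were higher and 1 lower before adjustment (median -0.04), Phlda3 having the lowest p (-0.52).

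Enzymes of cholesterol synthesis were mostly above 0 without passing. Of 19 enzymes 16 were above 0 and 6 had an unadjusted p under 0.05, all higher, with a median of 0.29 and no call. The median was 0.04 in air, 0.31 at 24 h and 0.09 at 72 h. Fdps, farnesyl diphosphate synthase, was at 1495, 1244 and 1045 in Tnfr+/+ and at 2157, 2754 and 2314 in Tnfr-/- lungs (0.94, adjusted p = 0.38). Sqle, squalene epoxidase, was at 963, 951 and 1067 against 1411, 1430 and 1465 (0.53, adjusted p = 0.31), and Dhcr7, the last reductase of the pathway, gave 0.36 (adjusted p = 0.29). Leaving out Tnfr+/+ replicate 2 reduced these 6 to 2, and leaving out Tnfr-/- replicate 2 reduced them to 3. The 24 fatty acid and lipid storage genes had a median of -0.07, which ran from -0.23 to 0.07 with single 48 h arrays left out. Their summed signal was 98980 in the Tnfr+/+ array with fat signal and 67360 and 59300 in the other Tnfr+/+ lungs. In Tnfr-/- lungs it was 65420 to 67460. Fads2, the delta-6 desaturase, was at 359, 157 and 255 against 513, 519.9 and 551.5 (1.12, adjusted p = 0.10). Sgms1, sphingomyelin synthase, gave 0.90 (adjusted p = 0.11) and Lrp2, the endocytic receptor megalin, 0.71 (adjusted p = 0.11).

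Mucous and squamous injury genes were more often above 0 than below it, and none of those measured by a probe set of 1 gene was called. The called Sprr2a probe set (log2 difference 4.27) is not counted here, since Sprr2a1 and Sprr2a2 share it. Of 20 genes of goblet cells and squamous injury 15 were above 0, with 6 higher and 1 lower before adjustment (median 0.32). These 7 became 3 without Tnfr-/- O3 48 h replicate 2, 4 without Tnfr+/+ or Tnfr-/- replicate 3, and 5 without any other of the 6 arrays. Of 22 type 2 response genes 14 were above 0 and 8 below, 5 were higher and none lower before adjustment, and the median was 0.19, against -0.17 in air, 0.29 at 24 h and 0.18 at 72 h. Clca1, a secreted regulator of mucus, was at 424, 121 and 5.35 in Tnfr+/+ and at 756, 487 and 1171 in Tnfr-/- lungs, a difference of 3.54 with a standard error of 1.33 (adjusted p = 0.34). Its Tnfr+/+ values spread over a wide range, the difference was 1.74 without Tnfr+/+ O3 48 h replicate 3 and 3.22 to 4.90 without any other of the 6, and its second, dim probe set gave 0.06. Slc26a4, the anion exchanger pendrin, was tighter, at 371, 317 and 498 against 724, 703.5 and 917 (1.00, adjusted p = 0.12). Agr2, a chaperone for mucins, was at 14.3 to 37.3 against 108.9 to 194.5 (2.74, adjusted p = 0.36), and Muc5b, an airway mucin, gave 0.65 (adjusted p = 0.36). The Tnfr+/+ values of Agr2 all lie under the 20th percentile of an array (52.2), so the size of its difference is uncertain. Il33, an epithelial alarmin, was at 2305, 2066 and 1990 against 2498, 3096 and 2998 (0.43, adjusted p = 0.38). The chitinase-like genes Chil3 and Chil4 gave 0.45 and -0.15 (adjusted p = 0.38 and 0.92), and Dmkn, dermokine of stratified epithelium, 0.58 (adjusted p = 0.38). The type 2 count went from 5 to 1 without Tnfr+/+ O3 48 h replicate 3 and to 2 without Tnfr-/- O3 48 h replicate 3.

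Matrix, TGF-beta and smooth muscle genes were higher in part. Of 33 matrix and adhesion genes Tgfbi was called higher and 32 did not pass, with 4 higher and 1 lower before adjustment (median 0.07), and these 5 became 3 without Tnfr-/- O3 48 h replicate 2. Timp1, an inhibitor of matrix metalloproteinases, was at 2108, 1924 and 1756 in Tnfr+/+ and at 2575, 3221 and 3277 in Tnfr-/- lungs (0.64, adjusted p = 0.30). Fn1, fibronectin, gave 0.47, and Flna, which cross-links actin, 0.31 (adjusted p = 0.39 and 0.48). Of 25 TGF-beta genes Tgfbi was again the only call, with 5 higher and 1 lower before adjustment (median 0.07). Tagln, a smooth muscle cytoskeletal protein, was at 1483, 1366 and 1156 against 2242, 2246 and 2621 (0.83, adjusted p = 0.11), and 10 of the 11 smooth muscle genes were above 0 (median 0.36). The smooth muscle median was -0.29 in air, -0.24 at 24 h and 0.17 at 72 h. In contrast 15 of 16 cardiac muscle genes were below 0 (median -0.46), the exception being Nebl, nebulette, at 149, 212 and 96.0 against 340, 323 and 377 (1.26, adjusted p = 0.30). Their summed signal was 7789 to 11910 in Tnfr+/+ and 7426 to 8415 in Tnfr-/- lungs, and their median was also below 0 in air (-0.51), at 24 h (-0.59) and at 72 h (-0.51).

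Immune recognition and interferon genes leaned lower. Of 23 interferon response genes 20 were below 0, 3 at an unadjusted p under 0.05 (median -0.27). Ifi47, an interferon-induced GTPase, was at 1291, 1269 and 889.9 in Tnfr+/+ and at 638, 613 and 570.4 in Tnfr-/- lungs (-0.90, adjusted p = 0.38), and the 3 became 0 without Tnfr+/+ replicate 1 or 2, 5 without Tnfr+/+ replicate 3 and 1 without Tnfr-/- replicate 3. All 8 MHC class II genes were below 0 (median -0.25), with H2-Oa, which tunes peptide loading, and Ctss, the protease cathepsin S, at -0.65 and -0.71 (adjusted p = 0.22 and 0.23). The 9 MHC class I genes had a median of -0.18. Markers of alveolar macrophages were mixed (16 genes, median -0.10), with Marco, a scavenger receptor, at 401, 606 and 578 against 291, 472 and 246 (-0.69, adjusted p = 0.39) and Cd68 at 0.45. The 12 neutrophil genes had a median of -0.21 and 1 at an unadjusted p under 0.05, Mmp9 (-0.45).

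The remaining epithelial, endothelial and metabolic lists held no call. The 10 alveolar type 1 genes had a median of -0.17, with Igfbp2, an insulin-like growth factor binding protein, at 2682, 2621 and 3153 against 2065, 2027 and 1667 (-0.56, adjusted p = 0.36). The medians of type 2, club, ciliated and endothelial cell genes were 0.03, -0.07, -0.21 and 0.04, and that of fibroblasts -0.08. Xenobiotic enzymes had 6 lower and 2 higher of 29 at an unadjusted p under 0.05 (median -0.16), and these 8 became 5 without Tnfr+/+ O3 48 h replicate 2. Cyp2e1, an ethanol-oxidizing cytochrome P450, was at 658, 3226 and 539 against 421, 358 and 397.5, so that the array with fat signal held most of it. Among 18 liver genes 4 were lower and 1 higher before adjustment (median -0.32), 3 in all without Tnfr-/- O3 48 h replicate 3, and Alb, albumin, gave -0.34 (adjusted p = 0.74). The 29 NRF2 antioxidant genes had a median of 0.06, the 20 eicosanoid enzymes -0.14 with Alox12 at -0.20 (adjusted p = 0.91), and the 24 heat shock genes 0.22 with 22 above 0, where the same list had medians of -0.36 in air and -0.79 at 24 h. Got2, a mitochondrial aminotransferase, was at 0.01 (adjusted p = 0.98).

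Dbp and Nr1d1 were called higher over the other exposures and not at 48 h, and for neither did an interaction pass. Dbp, an output gene of the circadian clock, was at 169, 260.5 and 283 in Tnfr+/+ and at 296, 518 and 370.5 in Tnfr-/- lungs at 48 h (0.73, adjusted p = 0.27), and its differences in air, at 24 h and at 72 h were 1.57, 1.60 and 1.62 (adjusted p = 1.7e-06 over the 3). Nr1d1, a repressor of the clock, gave 0.45 at 48 h (adjusted p = 0.49) and 0.88 over the other exposures (adjusted p = 0.0014). The called probe set of Npas2 gave -2.34 at 48 h and -2.14, -1.44 and -2.68 in air, at 24 h and at 72 h. The 17 clock genes had a median of 0.00 at 48 h, and the time of day of tissue collection is not given in the sources used here.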

How the data were processed

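Left-lung RNA from 24 mice (8 groups of 3) was measured on Affymetrix mouse arrays. The deposited values are linear intensity signals that, per the labels, the authors made with MAS5 in Affymetrix Expression Console. No detection calls were used. Samples were grouped by genotype and exposure label. For this work signals were quantile normalized over the 24 arrays, floored at 1 and log2 transformed. The 64 control probe sets and those below the 20th percentile on every array were dropped, leaving 20537 of 22644. Means of the 8 groups were fitted with limma 3.58.1 in R 4.3.3 (16 residual degrees of freedom), and p was adjusted by Benjamini-Hochberg over all probe sets, with a call at an adjusted p under 0.05. Of the probe sets other than controls, 20338 had 1 gene in the platform annotation, 20309 of these with a current symbol, 691 had several and 1551 were not listed. A gene was represented by its brightest probe set. Genes were named if among the 15 largest called rises or falls above the median signal without overlap, if on a list of 30 genes that the article names (3 of them had no probe set of their own), or if called or among the 3 lowest p in a gene list. The comparison, the members and the lists were chosen with earlier results of these data known. Alternatives were other normalizations, filters, offsets, weights, sample sets, a replicate block and leaving out each 48 h array, or Tnfr+/+ O3 72 h replicate 1. The fit was tested on simulated data. Replicates are separate mice, and 3 per group limits the precision.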

Additional observations from a re-analysis of the deposited data

Results flagged for a closer look

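A test of the difference between 48 h and 24 h O3 in the genotype effect passed for 4 probe sets, each with a larger genotype difference at 24 h than at 48 h, where none was called. For Hsph1 the interaction was 3.05 on the log2 scale (adjusted p = 0.013 by limma). Tnfr+/+ lungs averaged 5525 ± 1805 at 24 h and 2383 ± 646 at 48 h, and Tnfr-/- lungs 853 ± 219 and 3110 ± 950.4 (SD, n = 3 mice). For Chordc1 it was 1.98 (adjusted p = 0.025), with Tnfr+/+ means of 2117 ± 459 and 1257 ± 178 and Tnfr-/- means of 641 ± 107 and 1527 ± 326. For Egr1 it was -2.03 (adjusted p = 0.0045), with Tnfr+/+ means of 1069 ± 70.5 and 1204 ± 132 and Tnfr-/- means of 5351 ± 313 and 1507 ± 359. For AA545190 it was -3.11 (adjusted p = 0.0022), with Tnfr+/+ means of 11.5 ± 6.06 and 62.7 ± 12.0 and Tnfr-/- means of 70.8 ± 4.46 and 48.3 ± 6.22. At 24 h and at 48 h the genotypes also did not overlap in the Gapdh or actin 3'/5' ratio. The cause of the 4 interactions, and the part of RNA quality in them, was not tested.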

How the results depend on the processing

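The 48 h count of 34 became 15 with only the arrays of the comparison, 106 with array quality weights and 68 without Tnfr+/+ O3 72 h replicate 1, and 14 to 68 over the single arrays left out. The other settings gave 31 to 39. The interaction with air, at 0, became 7 with only its arrays and 3 with quality weights, and 0 to 3 with 1 array left out. That with 24 h, at 4, became 0 with only its arrays and 2 to 7 with 1 array left out. That with 72 h, at 0, became 0 to 1 with 1 array left out. The count over the other exposures, 493, became 311 and 823 with only its arrays and with quality weights. Of the 34, 4 were called under all 16 settings and none changed sign. The causes were not tested.

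Some uncalled differences changed sign. With all probe sets averaged Vcam1 was 0.412 and Pdgfra 0.122. With single arrays left out Chil4 ran from -0.57 to 0.204, Nfkbia from -0.2 to 0, Got2 from -0.071 to 0.109, Aldh1a7 from -0.027 to 0.268 and Hba-a1 from -0.06 to 0.92. Of 44 list medians, 29 moved under no setting and 11 changed sign under at least 1.

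No pairing by replicate number was seen at 48 h, where the deviations of same-numbered mice correlated at -0.019, 0.031 and 0.002. For replicate 1 the value was 0.083 at 24 h and 0.115 at 72 h, the highest of the same-numbered values. With 3 arrays a group these values cannot exclude a batch shared by replicate number. With a replicate block 31 probe sets were called at 48 h, and the interaction with 72 h gave 1.

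With 3 mice a group and no detection calls, differences at dim signals, where uncalled probe sets scatter most, are the least certain. Genotype and strain cannot be told apart.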
